A study of Homo sapiens with 12 samples.

Results

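The genes described here are 10 members of the cell death machinery in MDA-MB-231-ERβ cells, a triple negative breast cancer (TNBC) line engineered to express full length ERβ, the estrogen receptor beta, when doxycycline (dox) is added. They are the 9 BCL2 family genes BCL2L1, MCL1, BAX, BAK1, BBC3, PMAIP1, BCL2L11, BID and BAD, together with CFLAR, which encodes cFLIP. The genes were chosen by name, and all 10 were among the 12451 gene entries of the count table and among the 11303 entries tested. BCL2L1, MCL1 and CFLAR are described as the 3 survival genes, and the other 7 as death genes. Of the death genes, 2 (BAX and BAK1) encode the effectors and 5 encode proteins of the BH3-only class.

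All cells were plated with dox, and they received ethanol vehicle or 1 nM 17β-estradiol (E2), an ERβ ligand, for 5 days. In the TNFα and E2+ TNFα groups, 20 ng/ml tumor necrosis factor alpha was present for the final 3 h. Each of the 4 groups had 3 libraries, giving 12 in all. Dox is named for every sample in the treatment protocol but not in the treatment label of the E2+ TNFα libraries. ESR2, the gene of ERβ, was at 228 to 508 CPM (counts scaled to library size) in every library, and the vehicle group shows cells with ERβ but no added ligand. Its level differed between groups, being lower than in vehicle with TNFα (log2 fold change -0.89, adjusted p = 5.58e-06) and with E2 (-0.62, adjusted p = 0.000152), and 1.76-fold higher in E2+ TNFα than in TNFα (adjusted p = 5.73e-05, edgeR's quasi-likelihood test). The part of this difference in the results for the 10 genes was not tested. Whether the line is a single clone is not given in the sources used here. The comparisons asked how E2 acting on ERβ changed these genes, how TNFα, a ligand that activates NFκB/p65 signaling, changed them, and whether E2 altered the response to TNFα.

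BCL2 family proteins decide whether the outer membrane of mitochondria stays intact. BAX and BAK form pores through which cytochrome c escapes to start the caspase cascade, survival proteins such as BCL-XL (the product of BCL2L1) and MCL-1 hold them in check, and BH3-only proteins bind the survival proteins or activate the effectors directly. cFLIP acts upstream of mitochondria, where it competes with caspase-8 in complexes assembled on death receptors, and CFLAR and BCL2L1 are both known target genes of NFκB.

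Promoter sequences were searched first, because TNFα and E2 act through known DNA motifs. RefSeq promoters (GRCh38.p14, 250 bases before to 50 bases after a start site) covered 9 of the 10 genes with 18 start sites, MCL1 being the exception. A κB motif (GGG and TTTCC separated by 2 bases of any kind, either strand) lay in 0 of these 18 and in 1.91% of all 35116 promoters, and an estrogen response element (GGTCA and TGACC separated by 3 bases) in 0 of 18 and 0.0570% of all. Other forms of these motifs, and sequence outside this window, were not searched, so 0 of 18 does not show that such sites are absent. The AP-1 motif TGANTCA, whose letters read the same on both strands, lay in 2 of 18 and in 7.71% of all. Both matches are shown with 10 bases on each side, on the strand of the gene and with the motif in capitals, because BBC3 showed the steepest response to TNFα of the 10 genes and CFLAR is the only death receptor regulator among them.
BBC3: cactggaaggTGAGTCActctggtgag
CFLAR: atatggtcctTGAATCAacatcacctg
The BBC3 sequence lies at chr19:47232764-47232790 on the minus strand, and its motif starts 113 bases before the start site. The CFLAR sequence lies at chr2:201132611-201132637 on the plus strand, and its motif starts 160 bases before 1 of the start sites within the gene. A match describes these letters only, and no binding was measured in these data.

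The libraries held 7.65 to 39.9 M reads assigned to genes, with 35.8 to 39.9 M in vehicle, 19.5 to 30.5 M in TNFα, 7.65 to 15.8 M in E2 and 16.8 to 36.7 M in E2+ TNFα. Markers of the cell line were present in every library, with VIM at 1042 to 1668 CPM, while LYZ, a myeloid marker, was at 0.0438 to 2.91 CPM and PTPRC, CD3E and PECAM1 were not analysed here. Among genes listed beforehand as low or absent in this line, ERBB2 was at 85.7 to 123 CPM and CDH1 at 1.77 to 53.4 CPM. EPCAM was at 6.54 to 15.7 CPM and GATA3 at 3.67 to 14.5 CPM, so these were not absent, and ESR1, PGR and FOXA1 were not analysed here. GREB1, a gene induced by estrogen receptors, was at 3.29 to 3.61 CPM in vehicle and 45.0 to 61.7 CPM in E2. NFKBIA and TNFAIP3, the checks of TNFα treatment, were at 68.8 to 73.1 and 162 to 195 CPM in vehicle. In TNFα they were at 356 to 378 and 492 to 597 CPM. Both were lower in E2+ TNFα than in TNFα (log2 fold change -0.40, adjusted p = 0.00828, and -0.41, adjusted p = 0.00868, edgeR's quasi-likelihood test). The vehicle libraries stood apart from the other 9 in a way that followed base composition. Over the tested genes, the log2 fold change of TNFα relative to vehicle had a Spearman correlation of 0.71 with the GC content of the exons, against -0.21 for E2+ TNFα relative to TNFα and -0.33 for E2+ TNFα relative to E2. The latter comparison also had a correlation of 0.46 with exon length, so trends were present without the vehicle libraries too. A batch that holds only the vehicle libraries cannot be told apart from the vehicle group, so each change relative to vehicle is given as fitted and, where the outcome differed, with every library's trends with GC content and length removed. The members span this range from PMAIP1, with 37.1% GC and 3.11% of tested genes below it, to BAD, with 66.7% GC and 98.4% below it.

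**Figure D1:**
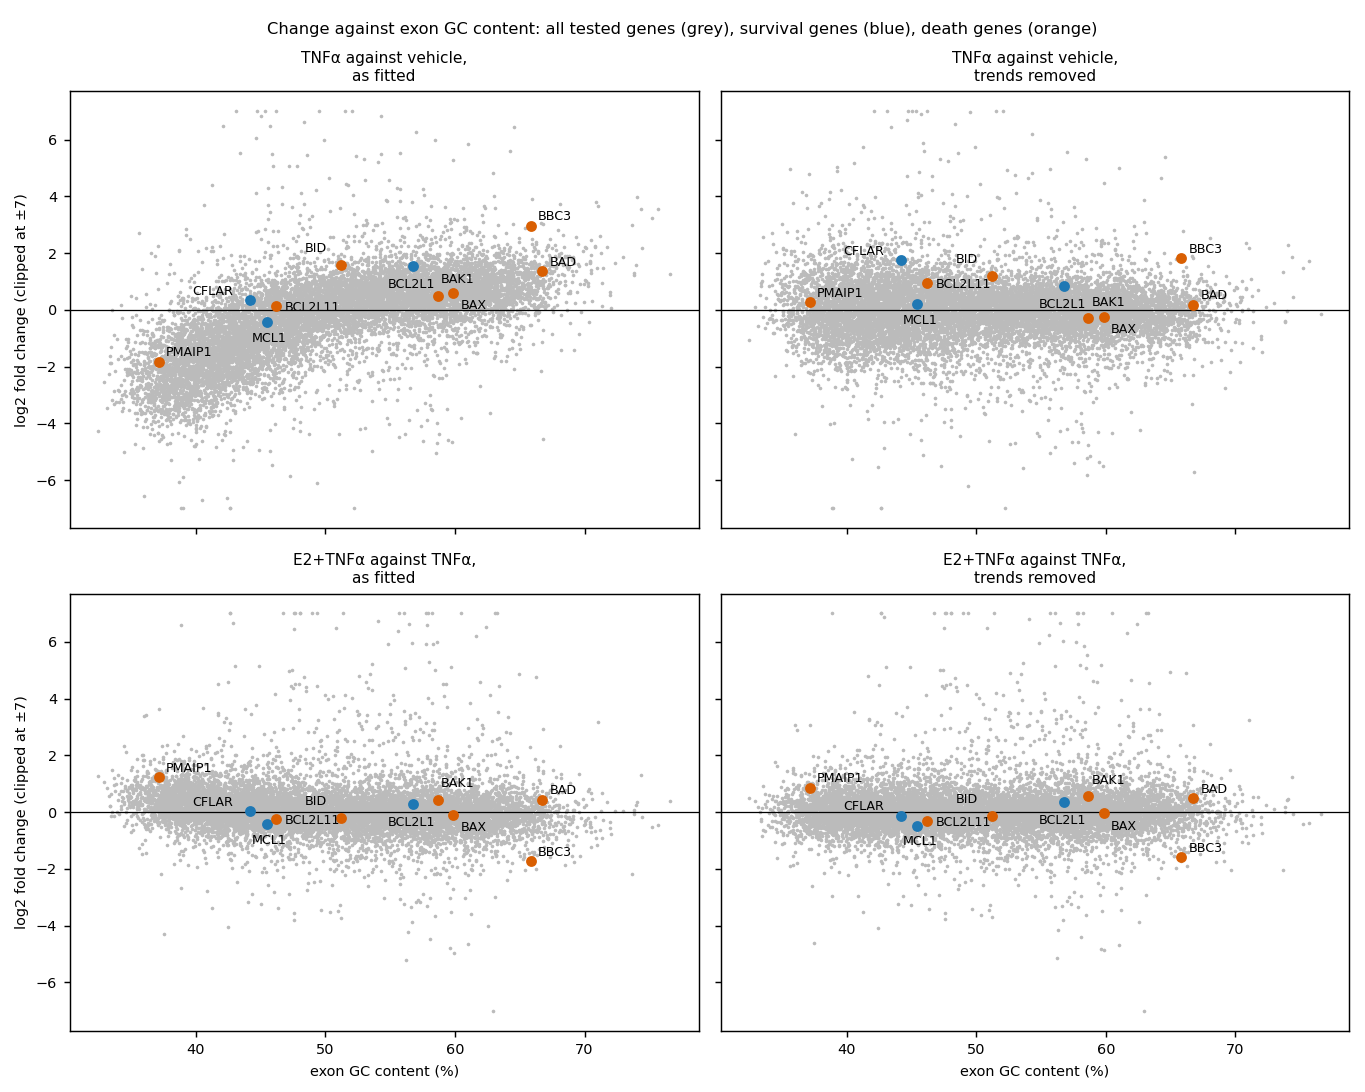
Log2 fold change against exon GC content (%) for TNFα relative to vehicle (top) and E2+ TNFα relative to TNFα (bottom), as fitted (left) and with GC and length trends removed (right); grey points are all 11303 tested genes, blue points survival genes and orange points death genes. In the top left panel PMAIP1 (-1.82) lies on the falling arm at low GC content and BBC3 (2.97) above the band at high GC content, and in the bottom panels BBC3 stays below the band (-1.74 and -1.60).

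Per exon length, BCL2L1 was the most abundant of the 10 genes in every group. Its RPKM (CPM divided by the summed exon length in kilobases) was 91.8 ± 3.84 in vehicle and 401 ± 49.7 in E2 (SD, n = 3), above that of 95.1% of tested genes in vehicle and 98.3% in E2. BAX followed in vehicle with 71.9 ± 5.44 RPKM, then MCL1 with 65.7 ± 4.35 and BAK1 with 47.7 ± 3.02 RPKM. PMAIP1 (31.7 ± 4.57 RPKM), BAD (19.1 ± 5.22) and BID (9.15 ± 0.236) were intermediate. CFLAR (3.48 ± 0.119 RPKM), BBC3 (1.88 ± 0.130) and BCL2L11 (1.58 ± 0.108) were the lowest in vehicle, and BBC3 alone of these 3 reached 14.8 ± 1.17 RPKM in another group, TNFα. The lowest count behind any value was 24 reads, for BBC3, so counting error mattered most for that gene in E2. RNA came from whole cultures, so a change in every cell and a change in the share of cells expressing a gene cannot be told apart.

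Between 2 and 9 of the 10 genes passed the test (adjusted p of at most 0.1, edgeR's quasi-likelihood test with Benjamini-Hochberg adjustment over all tested genes), depending on the comparison. Relative to vehicle, E2 changed 8 genes, where 81.8% of all tested genes passed, with 5 higher (40.1% of all) and 3 lower (41.7%). TNFα changed 9 genes, where 81.9% passed, with 7 higher (40.3%) and 2 lower (41.6%). E2+ TNFα relative to TNFα changed 4 genes, where 45.3% passed, with BAK1 and PMAIP1 higher (24.4%) and MCL1 and BBC3 lower (21.0%). These 3 shares were close to those of all genes. E2+ TNFα relative to E2 changed 2 genes, where 6.00% passed, with BBC3 higher (2.65%) and BAK1 lower (3.34%).

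The study also asked for a log2 fold change of 1.5 or more in either direction, which left 2 genes for E2 (BCL2L1 and BAD, beside 30.5% of all genes) and 4 for TNFα (BCL2L1, BBC3, PMAIP1 and BID, beside 26.7%). It left 1 for E2+ TNFα relative to TNFα (BBC3, beside 5.56%) and 0 for E2+ TNFα relative to E2 (beside 0.407%). In the last comparison DESeq2 also gave 0. The CPM ranges of the groups did not overlap for 7 members in E2 and vehicle (80.9% of all genes), 10 in TNFα and vehicle (86.6%), 5 in E2+ TNFα and TNFα (46.8%) and 4 in E2+ TNFα and E2 (15.3%).

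**Figure D2:**
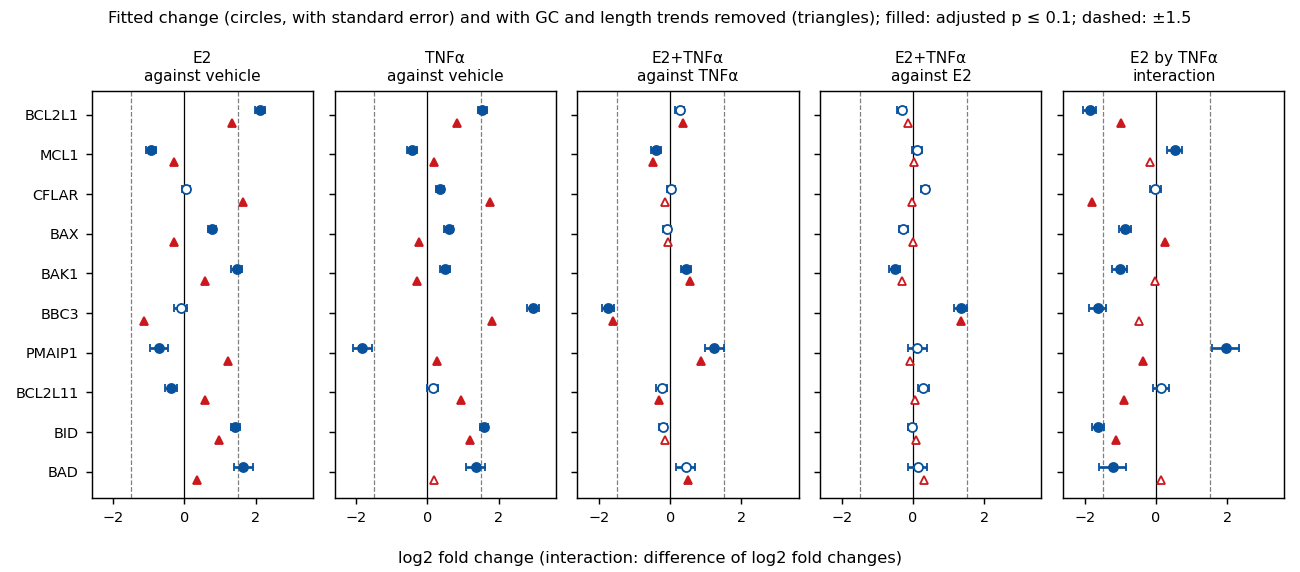
Log2 fold change of each gene in the 4 pairwise comparisons, and the difference of log2 fold changes for the interaction; circles with standard errors are the fitted values, triangles the values with GC and length trends removed, filled symbols passed an adjusted p of at most 0.1 and dashed lines mark ±1.5. BBC3 is the gene farthest from 0 in TNFα relative to vehicle (2.97) and in E2+ TNFα relative to TNFα (-1.74), and PMAIP1 moves from -1.82 to 0.28 with the trends removed in TNFα relative to vehicle.

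BBC3 (chr19:47220822-47232996 in hg38, as all gene positions here) encodes PUMA, a BH3-only protein that binds the survival proteins of the BCL2 family and is known as a p53 target. Its level was 4.76, 4.35 and 4.99 CPM in the vehicle libraries, 37.5, 33.7 and 39.4 CPM in TNFα, 3.97, 3.83 and 5.24 CPM in E2, and 10.6, 10.1 and 12.3 CPM in E2+ TNFα. The TNFα libraries were far above all others, the E2+ TNFα libraries formed a separate intermediate level, and vehicle and E2 overlapped. TNFα raised BBC3 7.83-fold relative to vehicle (log2 fold change 2.97 ± 0.171 SE, adjusted p = 3.33e-09, edgeR's quasi-likelihood test). With E2 present the rise over E2 alone was 2.52-fold (1.33 ± 0.182, adjusted p = 0.000854, same test). E2+ TNFα was accordingly 3.34-fold below TNFα (-1.74 ± 0.164, adjusted p = 8.19e-07), the only one of the 10 genes past the thresholds of the study in that comparison, which 2.01% of all genes passed in the lower direction. This fall lay between -1.83 and -1.60 on the log2 scale in every alternative that was run, each with an adjusted p of at most 1.59e-05. The rise over vehicle was smaller with GC and length trends removed, 3.56-fold (1.83), and still passed (adjusted p = 1.09e-07). BBC3 did not pass for E2 relative to vehicle (-0.10, adjusted p = 0.612), but with the trends removed it was lower (-1.12, adjusted p = 0.000123).

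PMAIP1 (chr18:59899960-59904306) encodes NOXA, a BH3-only protein that binds chiefly MCL-1. It had 51.3, 68.0 and 64.7 CPM in vehicle, 16.3, 18.5 and 17.2 CPM in TNFα, 53.8, 27.3 and 30.0 CPM in E2, and 40.6, 55.5 and 26.5 CPM in E2+ TNFα. All TNFα libraries lay below all others, while vehicle, E2 and E2+ TNFα overlapped and the last groups spread widely. E2+ TNFα was 2.36-fold above TNFα (log2 fold change 1.24 ± 0.261 SE, adjusted p = 0.00173, edgeR's quasi-likelihood test), and this rise kept its direction and passed in all alternatives, between 0.86 and 1.48. After trend removal it was 1.81-fold (0.86), and the standard error was 0.107. Relative to vehicle PMAIP1 fell by 1.82 on the log2 scale with TNFα (3.54-fold, adjusted p = 1.49e-05) and by 0.71 with E2 (adjusted p = 0.0198), but it has the lowest GC content of the 10 genes and neither direction held. After trend removal the changes were 0.28 for TNFα (adjusted p = 0.0259) and 1.23 for E2 (adjusted p = 7.44e-08). The E2 change also rested on single libraries, being -0.50 (adjusted p = 0.149) without E2 replicate 2 and -1.15 without E2 replicate 1.

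BID (chr22:17734140-17774665) encodes a BH3-only protein that caspase-8 cleaves, linking death receptors to mitochondria. Its level was 24.6, 23.6 and 24.8 CPM in vehicle, 78.1, 72.3 and 70.2 CPM in TNFα, 73.5, 66.3 and 57.1 CPM in E2, and 66.0, 60.7 and 65.4 CPM in E2+ TNFα. Every treated library exceeded every vehicle library, and E2 overlapped with the other treated groups. BID rose 3.02-fold with TNFα (1.59 ± 0.118 SE, adjusted p = 3.37e-08) and 2.70-fold with E2 (1.43 ± 0.119, adjusted p = 5.42e-08, edgeR's quasi-likelihood test). With trends removed the rises were 2.30-fold and 1.95-fold and both passed, whereas with a factor from 20 housekeeping genes the rise with E2 missed the threshold (2.18-fold, adjusted p = 0.109). That factor was 0.4327 to 0.479 in the vehicle libraries and -0.4232 to 0.0486 in the others, so it nearly separates vehicle from the rest. A call relative to vehicle was thus likely to be lost in that fit for most genes, here and below. E2+ TNFα relative to TNFα did not pass (-0.20 ± 0.115, adjusted p = 0.189), although the groups did not overlap in CPM.

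BAD (chr11:64269828-64284704), whose BH3-only protein is kept inactive by phosphorylation, varied widely between replicates. It had 30.3, 17.8 and 22.0 CPM in vehicle, 78.8, 55.8 and 44.9 CPM in TNFα, 82.7, 88.0 and 51.5 CPM in E2, and 53.9, 84.5 and 105 CPM in E2+ TNFα. Vehicle lay below all treated libraries, and the 3 treated groups overlapped throughout. As fitted, BAD rose 3.16-fold with E2 (1.66 ± 0.278 SE, adjusted p = 5.86e-05) and 2.56-fold with TNFα (1.36 ± 0.274, adjusted p = 0.000332). After trend removal these were 0.36 (adjusted p = 0.0663) and 0.18 (adjusted p = 0.353). E2+ TNFα relative to TNFα was 0.44 ± 0.268 (adjusted p = 0.217), and passed without TNFα replicate 1 (0.69, adjusted p = 0.0934) and without E2+ TNFα replicate 1 (0.66, adjusted p = 0.0808). BAD shares 404 exon bases with GPR137 on the opposite strand, and whether the counting used strand is not given in the sources used here.

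BCL2L11 (chr2:111120618-111168445) encodes BIM, a BH3-only protein that binds the survival proteins of the BCL2 family and can activate BAX. Of the death genes it spanned the narrowest range in CPM, with 14.1, 16.2 and 15.5 CPM in vehicle, 16.4, 16.9 and 17.5 CPM in TNFα, 10.6, 13.4 and 11.7 CPM in E2, and 16.5, 13.0 and 14.0 CPM in E2+ TNFα. E2 was the lowest group and lay wholly below vehicle, and E2+ TNFα overlapped with every other group. The fall with E2 was 1.29-fold (-0.37 ± 0.160 SE, adjusted p = 0.0453), and with the trends removed the value was 0.59 (adjusted p = 0.00108). For TNFα the change of 0.15 did not pass (adjusted p = 0.367), and with the trends removed it was 0.96 (adjusted p = 4.96e-06). Its exons, 9649 bases in all, are longer than those of 95.3% of tested genes, and 727 of these bases are shared with MIR4435-2HG on the opposite strand.

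BAX (chr19:48954860-48961798), whose protein moves from the cytosol to mitochondria, had 101, 86.7 and 93.9 CPM in vehicle, 147, 137 and 144 CPM in TNFα, 159, 184 and 140 CPM in E2, and 133, 121 and 147 CPM in E2+ TNFα. Vehicle was below all treated libraries, and the treated groups overlapped. As fitted BAX rose 1.71-fold with E2 (0.78 ± 0.123 SE, adjusted p = 3.25e-05) and 1.52-fold with TNFα (0.60 ± 0.122, adjusted p = 0.000326). Both directions turned with the trends removed, to -0.29 (adjusted p = 0.000397) and -0.24 (adjusted p = 0.00147). E2+ TNFα relative to TNFα was -0.09 ± 0.121 (adjusted p = 0.578), and relative to E2 -0.27 ± 0.122 (adjusted p = 0.246), or -0.36 (adjusted p = 0.0804) without E2 replicate 3.

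BAK1 (chr6:33572546-33580299) encodes BAK, the effector that resides in the mitochondrial outer membrane. Its level was 118, 109 and 104 CPM in vehicle, 150, 141 and 177 CPM in TNFα, 300, 360 and 254 CPM in E2, and 246, 191 and 199 CPM in E2+ TNFα. The 4 groups did not overlap and ran in the order E2, E2+ TNFα, TNFα and vehicle. E2 raised BAK1 2.77-fold (1.47 ± 0.146 SE, adjusted p = 3.09e-07), and 1.49-fold with the trends removed (0.58, adjusted p = 0.000492). With the housekeeping factor the E2 value was 0.41 and did not pass (adjusted p = 0.600). The rise with TNFα was 1.42-fold (0.50 ± 0.143, adjusted p = 0.00488), and with the trends removed the value was -0.29 (adjusted p = 0.0385). E2+ TNFα was 1.36-fold above TNFα (0.44 ± 0.143, adjusted p = 0.0248), with 0.35 (adjusted p = 0.114) without TNFα replicate 2 and 0.32 (adjusted p = 0.126) without E2+ TNFα replicate 1. It was 1.44-fold below E2 (-0.52 ± 0.144, adjusted p = 0.0674), a call that was lost in 9 of the alternatives, among them those without E2 replicate 1 (-0.53, adjusted p = 0.152), without E2 replicate 2 (-0.40, adjusted p = 0.162) and without E2+ TNFα replicate 2 (-0.45, adjusted p = 0.246). BAK1 has a copy on chromosome 20 that matches 1988 of its bases at 89.1% identity, and reads shared with that copy are uncertain.

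**Figure D3:**
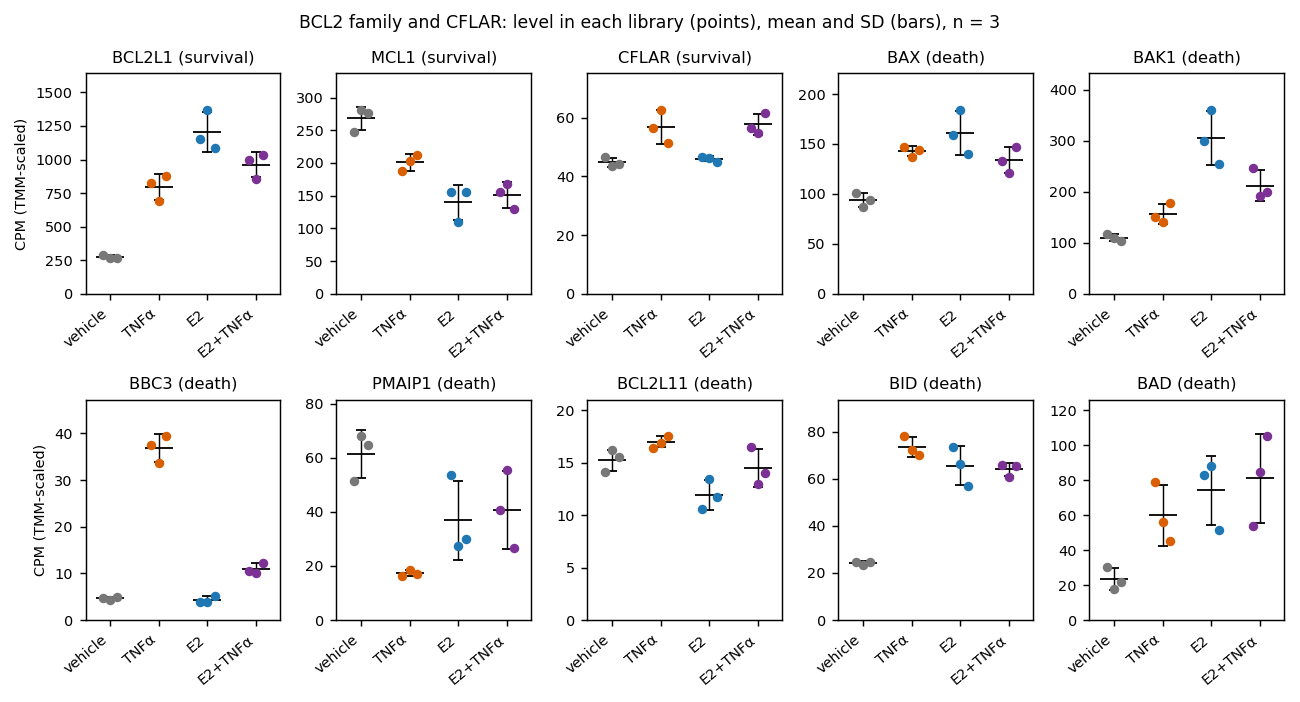
Level of each gene in CPM (linear axes from 0) in the 3 libraries of each group, with the group mean and SD. BBC3 peaks in TNFα (36.9 ± 2.93 CPM) and PMAIP1 is lowest there (17.3 ± 1.12 CPM), while BCL2L1 runs from 275 ± 11.5 CPM in vehicle to 1202 ± 149 CPM in E2.

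Of the survival genes, BCL2L1 (chr20:31664452-31723964) showed the largest changes as fitted. It had 288, 268 and 269 CPM in vehicle, 828, 689 and 877 CPM in TNFα, 1153, 1369 and 1083 CPM in E2, and 994, 855 and 1037 CPM in E2+ TNFα. E2 lay above every other group and vehicle below, whereas TNFα and E2+ TNFα overlapped. BCL2L1 rose 4.37-fold with E2 (2.13 ± 0.133 SE, adjusted p = 3.86e-09) and 2.90-fold with TNFα (1.54 ± 0.130, adjusted p = 1.05e-07, edgeR's quasi-likelihood test). The rises were smaller but still passed with the trends removed, 2.52-fold (adjusted p = 9.55e-10) and 1.78-fold (adjusted p = 1.86e-07), and with the housekeeping factor, 2.02-fold (adjusted p = 0.0909) and 1.74-fold (adjusted p = 0.0468). E2+ TNFα was close to TNFα (0.27 ± 0.127, adjusted p = 0.110), with values of 0.15 to 0.35 over the alternatives, 5 of which passed, among them those without TNFα replicate 3 (0.34, adjusted p = 0.0945), without E2+ TNFα replicate 2 (0.35, adjusted p = 0.0617) and with the trends removed (0.35, adjusted p = 0.00137). Gene counts do not separate BCL-XL from the short isoform BCL-XS, which promotes death, and 1070 exon bases are shared with the antisense transcript ABALON.

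MCL1 (chr1:150574551-150579738), whose protein turns over rapidly, was lower in the treated groups. It had 248, 281 and 276 CPM in vehicle, 187, 203 and 212 CPM in TNFα, 156, 109 and 156 CPM in E2, and 156, 168 and 129 CPM in E2+ TNFα. Vehicle was the highest group, TNFα came next, and both groups with E2 were lower and overlapped. MCL1 was 1.33-fold lower in E2+ TNFα than in TNFα (-0.41 ± 0.142 SE, adjusted p = 0.0346), with -0.37 (adjusted p = 0.111) without TNFα replicate 3 and -0.47 (adjusted p = 8.66e-05) with the trends removed. Relative to vehicle it fell 1.91-fold with E2 (-0.93 ± 0.144, adjusted p = 2.62e-05) and 1.34-fold with TNFα (-0.42 ± 0.142, adjusted p = 0.0141). With the trends removed the E2 value was -0.30 (adjusted p = 0.00229) and the TNFα value 0.20 (adjusted p = 0.0239), and with the housekeeping factor they were 0.42 and 0.49, with adjusted p of 0.532 and 0.252.

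CFLAR (chr2:201116154-201172688) had the smallest ratio of highest to lowest CPM of the 10 genes. It had 46.5, 43.6 and 44.2 CPM in vehicle, 56.5, 62.6 and 51.3 CPM in TNFα, 46.7, 46.3 and 44.9 CPM in E2, and 56.6, 54.7 and 61.7 CPM in E2+ TNFα. The 6 libraries with TNFα were above the 6 without it, and within each set the libraries with and without E2 overlapped. CFLAR rose 1.27-fold with TNFα (0.35 ± 0.111 SE, adjusted p = 0.0105), and 0.33 ± 0.114 over E2 alone did not pass (adjusted p = 0.134) in edgeR's quasi-likelihood test but did in DESeq2 (0.32, adjusted p = 0.0432). E2+ TNFα relative to TNFα gave 0.02 ± 0.112 (adjusted p = 0.905). With library size in place of TMM the TNFα value was 0.15 and did not pass (adjusted p = 0.217). After trend removal, the changes relative to vehicle were 1.75 for TNFα and 1.66 for E2 (adjusted p = 7.08e-08 and 1.50e-07), and the value over E2 alone was -0.04. The annotated exons of CFLAR, 12868 bases, are longer than those of 98.8% of tested genes, so this gene sits at the edge of the fitted length trend. Gene counts do not separate the long and short isoforms of cFLIP, and 445 exon bases are shared with an unnamed lncRNA on the same strand.

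The interaction compares the E2 change in the presence of TNFα with that in its absence. Of the 10 genes 8 passed, where 76.6% of all tested genes passed, with 2 higher (39.0% of all) and 6 lower (37.6%), and 4 passed the thresholds of the study (31.8%). As fitted it was -1.86 ± 0.182 for BCL2L1 (adjusted p = 1.03e-06), -1.63 ± 0.165 for BID (adjusted p = 1.34e-06) and -1.64 ± 0.244 for BBC3 (adjusted p = 3.42e-05, edgeR's quasi-likelihood test). BCL2L1 and BID rose with each agent alone, and neither passed for E2+ TNFα relative to TNFα or to E2. With the trends removed the values were -0.98 for BCL2L1 (adjusted p = 2.40e-06) and -1.11 for BID (adjusted p = 2.27e-06), and with the housekeeping factor -0.83 (adjusted p = 0.174) and -1.35 (adjusted p = 0.0756). For BBC3 the trends removed left -0.48, which did not pass (adjusted p = 0.122), the E2 change relative to vehicle being -1.12 in that fit. The interaction values of PMAIP1 (1.95), MCL1 (0.52), BAX (-0.87) and BAD (-1.22) all turned sign with the trends removed, and that of BAK1 (-1.02) became -0.02. For CFLAR it was -0.02 as fitted (adjusted p = 0.927) and -1.79 with the trends removed (adjusted p = 4.30e-06), the largest of the 10 genes in that fit.

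Set against each other by summed RPKM, the 3 survival genes gave 161, 162 and 161 in the vehicle libraries and the 7 death genes 192, 176 and 181. The ratio of survival to death genes was 0.836, 0.920 and 0.887 in vehicle, 1.10, 1.08 and 1.26 in TNFα, 1.13, 1.19 and 1.34 in E2, and 1.23, 1.10 and 1.16 in E2+ TNFα. Vehicle was the only group below 1, and the 3 treated groups overlapped. Since these sums were built from genes chosen with results known, no test was applied. The ratio does not depend on the scaling of a library but moved in vehicle with the trends removed, from 0.881 ± 0.0427 to 0.734 ± 0.00619 (SD, n = 3). BCL2L1 made up 57.0% ± 2.52 of the survival sum in vehicle and 91.2% ± 2.24 in E2, and BAX and BAK1 together 65.3% ± 1.25 and 70.5% ± 3.29 of the death sum, so that the sums mainly described these genes.

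The RPKM ratio of BCL2L1 to BBC3 was 50.5, 51.4 and 45.0 in vehicle, 18.4, 17.1 and 18.5 in TNFα, 242, 298 and 172 in E2, and 78.4, 70.2 and 70.2 in E2+ TNFα. The 4 groups did not overlap, TNFα was the lowest, and adding E2 to TNFα placed the ratio above vehicle. The ratio of MCL1 to PMAIP1 was 5.51 ± 0.328 in TNFα, against overlapping values of 2.09 ± 0.178 in vehicle, 1.91 ± 0.544 in E2 and 1.86 ± 0.442 in E2+ TNFα. After trend removal the vehicle value was 4.28 ± 0.0131 beside 4.06 ± 0.353 in TNFα, while E2 (1.52 ± 0.253) and E2+ TNFα (1.61 ± 0.123) stayed lower. BCL2L1 to MCL1 was 1.40 ± 0.157 in vehicle and 12.2 ± 4.24 in E2, and with the trends removed 2.79 ± 0.0405 and 8.78 ± 1.13.

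**Figure D4:**
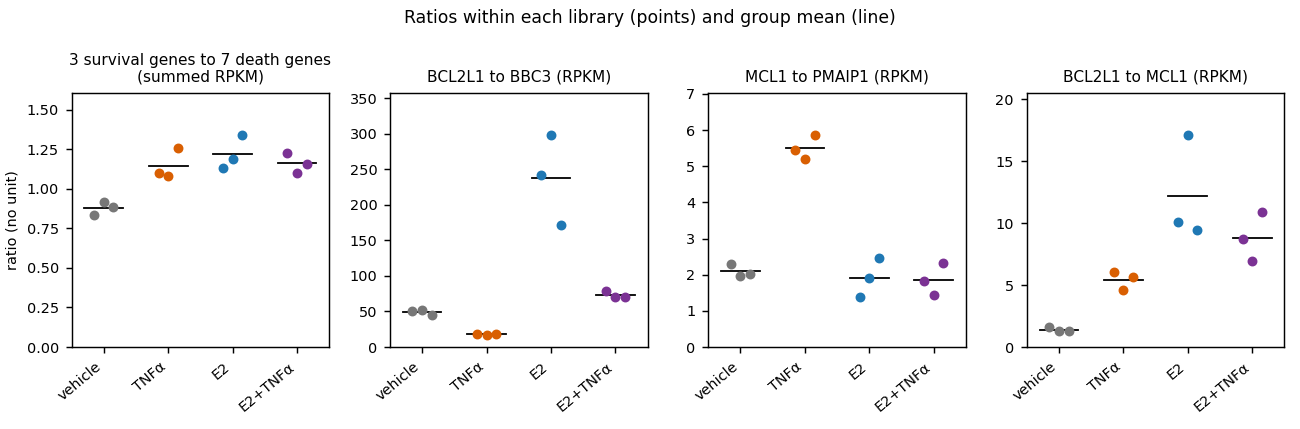
Ratio of summed RPKM of survival to death genes, and RPKM ratios of BCL2L1 to BBC3, MCL1 to PMAIP1 and BCL2L1 to MCL1, in each library (points, linear axes from 0), with group means as lines. BCL2L1 to BBC3 is lowest in TNFα (17.1 to 18.5) and highest in E2 (172 to 298), whereas MCL1 to PMAIP1 is highest in TNFα (5.21 to 5.86).

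Other genes of the same pathways were counted from lists chosen by function. Of the remaining BCL2 family, 6 genes were tested, BCL2 and BCL2A1 were in the table but too low to test, and BCL2L10, HRK, BCL2L14 and BCL2L15 were not analysed here. As fitted, all 6 were higher with E2 and 5 with TNFα relative to vehicle (beside 40.1% and 40.3% of all genes). The medians were 1.01 and 1.26 on the log2 scale, beside -0.02 and 0.01 over all genes. Counts and medians of the lists, here and below, are as fitted and were not repeated with the trends removed. With the trends removed, BCL2L2 no longer passed for E2 (0.26, adjusted p = 0.136, edgeR's quasi-likelihood test). BIK, a BH3-only gene, rose most, by 2.90 with E2 (adjusted p = 1.63e-07) and by 2.58 with TNFα (adjusted p = 4.80e-07), and still by 1.76 and 1.84 with the trends removed, from a vehicle level of 0.739 ± 0.166 CPM. Relative to TNFα, E2+ TNFα lowered 2 of the 6 (beside 21.0% of all genes), namely BMF (-1.02, adjusted p = 0.0156), which encodes another BH3-only protein, and the survival gene BCL2L2 (-0.51, adjusted p = 0.0254, or -0.37 with adjusted p = 0.137 without TNFα replicate 3). BMF had 6.82, 5.81 and 6.09 CPM in TNFα and 1.92, 3.32 and 3.81 CPM in E2+ TNFα. Like BBC3, BMF was thus a death gene whose level in TNFα exceeded that in E2+ TNFα in every library.

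Of 13 tested genes of death receptor signaling (FAS was not analysed here), 5 were higher and 3 lower in E2+ TNFα than in TNFα (beside 24.4% and 21.0% of all genes), with a median of -0.04 beside 0.04 over all genes. CYLD, a deubiquitinase that releases RIPK1 for death signaling, was higher (log2 fold change 1.08, adjusted p = 0.000224), and RBCK1, a subunit of the linear ubiquitin ligase, was lower (-0.89, adjusted p = 0.00136). Relative to E2, 1 of the 13 passed, beside 6.00% of all genes. It was FADD, the adaptor that recruits caspase-8 (-0.43, adjusted p = 0.0577, edgeR's quasi-likelihood test), a call lost in 7 of the alternatives. Relative to vehicle 9 were higher and 3 lower with E2 (beside 40.1% and 41.7% of all genes), and 11 higher and 2 lower with TNFα (beside 40.3% and 41.6%), with medians of 0.43 and 0.69. TRADD, the adaptor of the TNF receptor, rose by 2.32 with E2 (adjusted p = 3.73e-08) and by 1.63 with TNFα (adjusted p = 1.19e-06), or by 1.28 and 0.60 with the trends removed, and neither passed with the housekeeping factor (0.76, adjusted p = 0.370, and 0.60, adjusted p = 0.278).

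Of 12 genes of the apoptosome and the executioner caspases, 2 were higher and 3 lower in E2+ TNFα than in TNFα (beside 24.4% and 21.0% of all genes), with a median of 0.11 beside 0.04 over all genes. CASP9, the initiator caspase of the apoptosome, had 30.7, 26.7 and 28.5 CPM in TNFα and 14.3, 12.8 and 15.2 CPM in E2+ TNFα (-1.02, adjusted p = 0.000233). The CASP9 levels of these groups did not overlap. Relative to E2, 0 of the 12 passed (beside 6.00% of all genes). Relative to vehicle 8 were higher and 3 lower with E2 (beside 40.1% and 41.7% of all genes), and 7 higher and 5 lower with TNFα (beside 40.3% and 41.6%), with medians of 0.60 and 0.55. APAF1, the scaffold of the apoptosome, was lower with either agent, at -2.86 as fitted (adjusted p = 6.52e-08 for E2 and 6.72e-08 for TNFα) and at -1.01 and -1.17 with the trends removed, but with the housekeeping factor the E2 value did not pass (-1.63, adjusted p = 0.241).

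Of the 5 IAP genes, which encode caspase inhibitors and ubiquitin ligases of the TNF receptor complex, 3 were higher and 1 lower in E2+ TNFα than in TNFα (beside 24.4% and 21.0% of all genes), and 2 were higher than in E2 (beside 2.65%), with medians of 0.53 and 0.42. BIRC3, encoding cIAP2 and known as an NFκB target, had 11, 12 and 10.1 CPM in TNFα, 36.0, 21.8 and 22.4 CPM in E2, and 119, 191 and 49.1 CPM in E2+ TNFα. The E2+ TNFα libraries spread widely but all exceeded those of both other groups. BIRC3 rose by 3.44 ± 0.366 relative to TNFα (adjusted p = 3.16e-06) and by 2.15 ± 0.351 relative to E2 (adjusted p = 0.00484), and by 2.90 and 1.54 with the trends removed. In vehicle it was at 70.2 ± 10.4 CPM, which as fitted made it lower with TNFα (-2.67, adjusted p = 7.03e-06), but with the trends removed the value was -0.11 (adjusted p = 0.629). BIRC2, its paralog, was also higher in E2+ TNFα, by 1.08 relative to TNFα (adjusted p = 0.00139) and by 0.82 relative to E2 (adjusted p = 0.0695), the second of which was lost in 7 of the alternatives. At 32.3 ± 10.3 CPM in E2+ TNFα it stayed below its vehicle level of 120 ± 16.1 CPM. Relative to vehicle BIRC2 fell by 2.72 with E2 (adjusted p = 7.32e-08) and by 2.98 with TNFα (adjusted p = 4.70e-08). With the trends removed the values were -0.81 and -1.09 and both passed, but with the housekeeping factor the E2 value did not (-0.58, adjusted p = 0.616).

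Over the 12 libraries, the genes whose log2 CPM followed MCL1 most closely were PDP1 (Pearson r = 0.992), GNPNAT1 (0.988) and PRKAG2 (0.987). For PMAIP1 they were TMEM167A (0.988), MOSPD1 (0.987) and AP1S2 (0.983), whose exons have 36.5%, 38.2% and 35.9% GC. For CFLAR they were STAT5A (0.918), USP43 (0.917) and PTX3 (0.914). These values describe libraries that share a group, a depth and a trend with base composition, and the genes nearest PMAIP1 shared its low GC content.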

How the data were processed

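MDA-MB-231-ERβ cells were profiled by RNA-seq in 12 libraries. The deposited values are raw read counts per gene, which the authors obtained with featureCounts after mapping to hg38 (TopHat2 2.1.0 per the submitters' processing notes). They do not include the batch correction by RUVseq that the study's methods describe, and neither the batches nor the housekeeping genes are given in the sources used here. Of 12567 entries, 46 were exact repeats and 70 shared locus and counts with a second symbol, and these were dropped. RPKM was computed from summed exon length, and the 11303 entries reaching an RPKM of 1 in 3 or more libraries were tested. After TMM scaling, which also gave the CPM values, edgeR 4.0.16 (R 4.3.3) fitted all 4 groups jointly, and its quasi-likelihood test gave p-values, adjusted after Benjamini and Hochberg. A gene passed when its adjusted p was 0.1 or less. The thresholds of the study were p under 0.05 in addition and a log2 fold change of 1.5 or more in either direction. The methods state plating in triplicate and no label names separate cultures, so p-values measure the spread between these samples, which may be technical. Replicates differed 10.2 to 71.1 times more than counting error (chi-square per degree of freedom), so no pair of replicates was the same within counting error.

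The genes, lists and alternatives were chosen with earlier results of these data known. Named genes were the 10 members, up to 2 genes per pathway list and comparison with the largest change among those that passed with a mean of at least 1 CPM, GREB1, NFKBIA, TNFAIP3 and ESR2 as checks of treatment, and the 3 genes closest to MCL1, CFLAR and PMAIP1. Alternatives were DESeq2 1.42.0 or its size factors, library size only, no filter, the replicate number as a block, a factor from 20 housekeeping genes computed as in RUVg, each library's loess trends (span 0.3) with exon GC content and length removed, and each library left out. A fit without the vehicle libraries was added after seeing the data. On simulated data the edgeR fit was tested as such, with trends removed and with the replicate block, for E2 relative to vehicle only. DESeq2 was tested there without an added GC trend, and the other steps were not tested on simulated data. Gene positions and exon lengths are those deposited with the counts, and exon GC content was read from hg38 at these positions. Overlaps with other genes come from GENCODE 44, and copies of at least 200 bases from minimap2 2.31. The replicate numbers did not pair the samples, since deviations of libraries with the same number correlated at -0.468 to 0.451. A result for 1 gene of the lists is not reported here.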

Additional observations from a re-analysis of the deposited data

Results flagged for a closer look

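For 8 of the 10 genes the change with E2 differed between cells with and without TNFα by a direct test of that difference (edgeR's quasi-likelihood test, E2 by TNFα interaction, 3 libraries per group), as it did for 76.6% of all tested genes. The differences of log2 fold changes were -1.86 for BCL2L1, 0.52 for MCL1, -0.87 for BAX, -1.02 for BAK1, -1.64 for BBC3, 1.95 for PMAIP1, -1.63 for BID and -1.22 for BAD. Each uses the vehicle libraries. With GC and length trends removed, those of BCL2L1 (-0.98) and BID (-1.11) kept their sign and passed, those of BBC3 (-0.48) and BAK1 (-0.02) kept their sign and did not pass, and those of MCL1 (-0.17), BAX (0.24), PMAIP1 (-0.37) and BAD (0.13) turned. CFLAR, at -0.02 as fitted, was at -1.79 in that fit (adjusted p = 4.30e-06). The part of a batch in these differences was not tested, since the batches are not named. Without E2 replicate 2 the value of MCL1 was 0.27 (adjusted p = 0.182).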

How the results depend on the processing

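Of 780 values of the 10 genes under an alternative, 646 kept their direction and side of the threshold, 32 no longer passed, 28 passed newly and 74 changed direction. BBC3 in TNFα relative to vehicle and in both comparisons of E2+ TNFα, BCL2L1 and BID in TNFα relative to vehicle, BCL2L1 in E2 relative to vehicle and PMAIP1 in E2+ TNFα relative to TNFα passed in one direction under all alternatives run. So did BID in the interaction, between -1.73 and -1.10 with an adjusted p of at most 0.0756 in each alternative. The cause of the changes was not tested. Scaling to library size moved the median of all genes to -0.38 for E2 and -0.19 for TNFα relative to vehicle, 0.13 for E2+ TNFα relative to E2 and 0.31 for the interaction. The lowest counts, 24 for BBC3, limit precision for that gene in E2.

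With the housekeeping factor, 2 members passed for E2 and 3 for TNFα relative to vehicle, 1 for E2+ TNFα relative to E2 and 1 for the interaction. Of all genes, 836 passed for E2+ TNFα relative to E2 in that fit. The thresholds of the study were passed by 1, 1 and 0 members for E2, TNFα and the interaction. Since this factor nearly separates the vehicle libraries from the rest, calls that use vehicle were likely to be lost for most genes. A call lost there does not show that the change is absent. Values that changed direction were 0.42 (MCL1), -0.18 (CFLAR), -0.24 (BAX) and 1.98 (PMAIP1) for E2 relative to vehicle and 0.49 (MCL1), -0.07 (BAX), -0.20 (BAK1) and -0.29 (BCL2L11) for TNFα. They were -0.24 (MCL1), 0.00 (BAX), -0.61 (PMAIP1) and 0.04 (BID) for E2+ TNFα relative to E2 and -0.74 (MCL1), 0.18 (CFLAR), 0.07 (BAX) and -0.60 (PMAIP1) for the interaction.

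With library size only, 1, 2 and 2 members passed the thresholds of the study for E2, TNFα and the interaction. Of all genes, 3611, 3128 and 3651 did so, against 3447, 3016 and 3593 as first fitted. The direction changed for CFLAR with E2 (-0.32), BCL2L11 with TNFα (-0.05), CFLAR (-0.02) in E2+ TNFα relative to TNFα, BID (0.09) relative to E2 and CFLAR (0.30) in the interaction. With DESeq2 and with its size factors CFLAR was -0.01 in E2+ TNFα relative to TNFα, and DESeq2 called 4 members relative to E2.

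With GC and length trends removed, and in parentheses with the replicate block added, 1 (1), 2 (2) and 1 (1) members passed the thresholds of the study for E2, TNFα and the interaction, 7 (7) passed the adjusted p for E2+ TNFα relative to TNFα and 1 (1) relative to E2. Over all 11303 genes, 6761 (6546) passed for E2+ TNFα relative to TNFα in that fit, against 5124 as first fitted. Changed directions were BAX -0.29 (-0.29), PMAIP1 1.23 (1.21) and BCL2L11 0.59 (0.59) for E2, and MCL1 0.20 (0.20), BAX -0.24 (-0.24), BAK1 -0.29 (-0.29) and PMAIP1 0.28 (0.28) for TNFα. For E2+ TNFα, CFLAR was -0.14 (-0.13) relative to TNFα, and CFLAR -0.04 (-0.03), PMAIP1 -0.09 (-0.07) and BID 0.09 (0.10) relative to E2. For the interaction they were MCL1 -0.17 (-0.17), BAX 0.24 (0.24), PMAIP1 -0.37 (-0.35), BCL2L11 -0.90 (-0.90) and BAD 0.13 (0.16). The ratio of survival to death genes in vehicle was 0.734.

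The replicate numbers do not pair the samples, since 3 of 12 libraries correlated best with one of their own number (median -0.109 for equal and 0.0705 for different numbers). With the replicate number as a block, 1 member passed for E2+ TNFα relative to E2, BAK1 being -0.53 (adjusted p = 0.137), and 240 of all genes in place of 678. The block also ended the calls of BIRC2 (0.78, adjusted p = 0.126) and FADD (-0.43, adjusted p = 0.137) there and changed no other call of a named gene. Without the vehicle libraries 1 member and 200 genes passed in that comparison.

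Leaving out single libraries gave 1 to 3 members past the thresholds of the study for E2 relative to vehicle (3180 to 3650 of all genes). For E2+ TNFα relative to E2 it gave 1 to 4 members past the adjusted p (130 to 1658 of all genes). For E2 the ranges were -0.03 to 0.08 for CFLAR and -0.31 to 0.00 for BBC3, and for E2+ TNFα relative to TNFα -0.05 to 0.08 for CFLAR. For E2+ TNFα relative to E2 they were -0.05 to 0.21 (MCL1), -0.17 to 0.51 (PMAIP1), -0.14 to 0.06 (BID) and -0.09 to 0.35 (BAD), and for the interaction -0.12 to 0.07 (CFLAR).

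Of all tested genes, 9249 passed for E2, 9257 for TNFα and 8662 for the interaction, and 1476, 2024 and 824 with the housekeeping factor. The thresholds of the study left 3447, 3016 and 3593, against 1178, 994 and 690 with that factor and 1568, 1179 and 1551 with trends removed. For E2+ TNFα relative to E2, DESeq2 gave 1347 genes, trend removal 1298 and single libraries left out 130 to 1658, and past the thresholds of the study there were 46 genes, 94 with the housekeeping factor and 32 to 84 with single libraries left out.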
